A study of Mus musculus with 9 samples.

Results

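The genes described here are the enzymes that attach glutathione, glucuronic acid or sulfate to other molecules. They comprise every gene whose symbol starts with Gsta, Gstm, Gstp, Gstt, Gstk, Gsto, Gstz, Mgst, Ugt1a, Ugt2a, Ugt2b or Sult, which gave 65 of the 21868 genes in the count table. RNA was measured by bulk sequencing of jejunum, the middle stretch of the small intestine, from mice under sham treatment, total parenteral nutrition (TPN, nutrients given into a vein) or starvation, each for 24 h, with 3 libraries per group. A 5 cm piece of jejunum, opened lengthwise, was the source of each library. The sources used here do not give strain, genotype, sex, age, the infused formula or what sham mice ate. Replicates are labelled as biological, without a statement that they were separate mice, so the p-values measure the spread between libraries, which may in part be technical. Whole tissue also means that a change in the number of cells of a type and a change of RNA per cell cannot be told apart.

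These enzymes carry out the conjugation step of detoxification. Glutathione transferases (Gst and Mgst) join the tripeptide glutathione to reactive, electrophilic compounds, UDP-glucuronosyltransferases (Ugt) join glucuronic acid to bilirubin, steroids, plant phenols and drugs, and sulfotransferases (Sult) transfer sulfate from the donor PAPS. In the small intestine they are made largely by absorptive cells, where they meet compounds from food before these reach the blood. Many of the genes are known targets of sensors of foreign compounds and oxidants, among them the aryl hydrocarbon receptor, which binds the xenobiotic response element, and NRF2, which binds the antioxidant response element.

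The antioxidant response element, searched as TGACNNNGC on both strands, was found in 4 of 70 promoters, each of a different gene. The 70 belong to the 58 genes that had a promoter in the RefSeq table (GRCm38.p6). A promoter there is the 250 bases before to 50 bases after a gene's start. Over all 32851 promoters of that length in the table, 12.4% held it. Each of the 4 promoters held it once, so no matches overlapped. The matches are shown with 10 bases on either side, because these genes differed in direction between TPN and sham (Gsta3 and Gstm7 lower, Mgst1 higher, Gstm5 without a call). Capitals mark the match, which in Mgst1 reads on the opposite strand.
Gsta3 (chr1:21240454-21240482, plus strand): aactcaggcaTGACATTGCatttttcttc
Gstm5 (chr3:107895802-107895830, plus strand): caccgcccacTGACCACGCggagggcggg
Gstm7 (chr3:107931725-107931753, minus strand): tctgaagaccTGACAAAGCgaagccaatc
Mgst1 (chr6:138140461-138140489, plus strand): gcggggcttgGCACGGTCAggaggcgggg
The match began 121, 42, 129 and 56 bases before the RefSeq start in Gsta3, Gstm5, Gstm7 and Mgst1. For Gstm7 and Mgst1 the GENCODE M21 start lies further out than that RefSeq start. Their matches lie inside the genes as annotated in GENCODE M21. Gstm7 begins there at 107931817 (minus strand) and Mgst1 at 138140316 (plus strand). Both genes have another RefSeq promoter, which held no match. It lies further out for Gstm7 and further in for Mgst1. The xenobiotic response element, searched as TNGCGTG on both strands, was in 3 of the 70 promoters (Gsta2, Sult1d1 and Ugt1a5), against 5.07% of all promoters. Exact forms of the glucocorticoid response element, of the DR1 repeat bound by nuclear receptors and of the HNF1 site matched none of the 70. They matched 0.00913%, 0.0396% and 0.00913% of all promoters. A match is a run of letters and not a shown binding site.

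Gstm1, Ugt2b34 and Ugt2b5 were lower in TPN than in sham whichever single library was left out. Their 250 bases before the start, from the same RefSeq table, are shown as the upstream sequence of genes that moved together. None of the 5 motifs matched them, so they have no capitals.
Gstm1 (chr3:108017974-108018223, minus strand): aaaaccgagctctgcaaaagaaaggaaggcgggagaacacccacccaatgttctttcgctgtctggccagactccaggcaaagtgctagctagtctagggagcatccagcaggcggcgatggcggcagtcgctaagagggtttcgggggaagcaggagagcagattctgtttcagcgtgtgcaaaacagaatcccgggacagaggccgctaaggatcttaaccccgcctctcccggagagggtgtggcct
Ugt2b34 (chr5:86906938-86907187, minus strand): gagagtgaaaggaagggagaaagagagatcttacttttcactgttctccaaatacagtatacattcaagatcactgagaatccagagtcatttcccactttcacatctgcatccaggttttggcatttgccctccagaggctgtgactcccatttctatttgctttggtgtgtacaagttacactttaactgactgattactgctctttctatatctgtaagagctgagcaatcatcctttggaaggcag
Ugt2b5 (chr5:87140341-87140590, minus strand): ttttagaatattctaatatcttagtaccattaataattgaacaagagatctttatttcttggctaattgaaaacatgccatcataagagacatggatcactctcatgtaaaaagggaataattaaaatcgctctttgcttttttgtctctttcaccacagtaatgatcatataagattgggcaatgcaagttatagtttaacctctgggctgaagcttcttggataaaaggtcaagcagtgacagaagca

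Of the 65 genes, 44 had enough reads to be tested. The remaining 21 comprised 8 with no read in any library and 13 with at most 60 reads over the 9 libraries and at most 2.45 CPM (counts per 1000000 reads, library sizes scaled with TMM factors). Most of the sulfotransferases outside the Sult1 group were among them, with 15 listed, 4 tested and 6 without a read. Sult2a1, Sult2a3, Sult2a5, Sult2a6, Sult2a7 and Sult2a8, from a family that sulfates hydroxysteroids and bile acids, had no read, as did Sult1c1 and Ugt2b37. A count of 0 over all libraries cannot be told from a level under 3 reads.

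Total counts ran from 7779877 to 12084278 per library, so that 1 read was worth 0.0828 to 0.129 CPM before scaling. Several libraries stood apart in tissue markers. Sham replicate 2 had the highest sum of 12 smooth muscle markers, 11165 CPM, where sham replicates 1 and 3 had 1330 and 1426 and the TPN and starvation libraries 531 to 1609. In 8 villus tip markers, sham replicate 2 (58004 CPM) and starvation replicate 3 (75574 CPM) exceeded the other 7 libraries, which ran from 14428 to 27644. Pancreatic acinar markers, 10 in all, summed to 17425 CPM in TPN replicate 2, 3348 in sham replicate 1, 2227 in starvation replicate 1, and 30.5 to 344 in the rest. None of the markers in these lists was at 0 in all libraries. Markers of villus enterocytes, 12 genes, summed to 53594 to 96679 CPM in sham, 46385 to 54913 in TPN and 38827 to 138689 in starvation. With the Ugt1a cluster counted once, starvation replicate 3 was the highest of the 9 libraries for 11 of 36 transferase genes, and sham replicate 1 for 9. The lowest was TPN replicate 2 for 9, TPN replicate 3 for 9 and sham replicate 2 for 6. The part of tissue composition in the results below was not tested. Fits without sham replicate 2 and starvation replicate 3 are given beside them, and the acinar-rich libraries are among those left out singly.

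Reads were evidently assigned over whole gene spans. In all 762 pairs where one protein-coding gene lies inside another and the inner one had at least 100 reads, the outer gene's count was at least the inner gene's in all 9 libraries, including 294 pairs on opposite strands. A read inside nested genes was thus counted for each of them. For the transferases this matters most in the Ugt1a cluster, described with its genes. Levels per kilobase of exon below divide these counts by exon length, so any reads from introns are included in them.

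The first comparison, TPN with sham, asks what differs in jejunum fed by vein. Of the 44 tested transferase genes, 18 were lower in TPN and 1 was higher by the edgeR quasi-likelihood test at an adjusted p under 0.05, which is 43.2%, against 8.6% of all 14668 genes tested. Of all genes 3.48% were higher and 5.12% lower. Mu-class glutathione transferases, Ugt2b genes and the Ugt1a cluster made up 13 of the 18 lower genes. The median log2 fold change of the 44 was -0.68, against -0.02 for all genes. With the Ugt1a cluster counted once, 1 of 36 was higher and 15 were lower, with a median of -0.73. TPN and sham libraries did not overlap for 38 of the 44, or 86.4%, against 42.7% of all genes. These 38 include every Ugt1a gene, so the cluster's shared reads enter that share more than once. Scaling by library totals alone, without TMM factors, gave 2 higher and 9 lower. All 19 remained called without sham replicate 2 and starvation replicate 3, where 4 were higher and 28 lower and 29.8% of all genes were called. Leaving out 1 library moved the count from 19 to 10 without sham replicate 1, 7 without sham replicate 3, 6 without any 1 of the TPN libraries, 11 without starvation replicate 2 and 29 without starvation replicate 3. Calls over all genes, 1261 with all libraries, moved as well, to 563, 395, 216 to 242, 690 and 3182 in those fits.

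**Figure D1:**
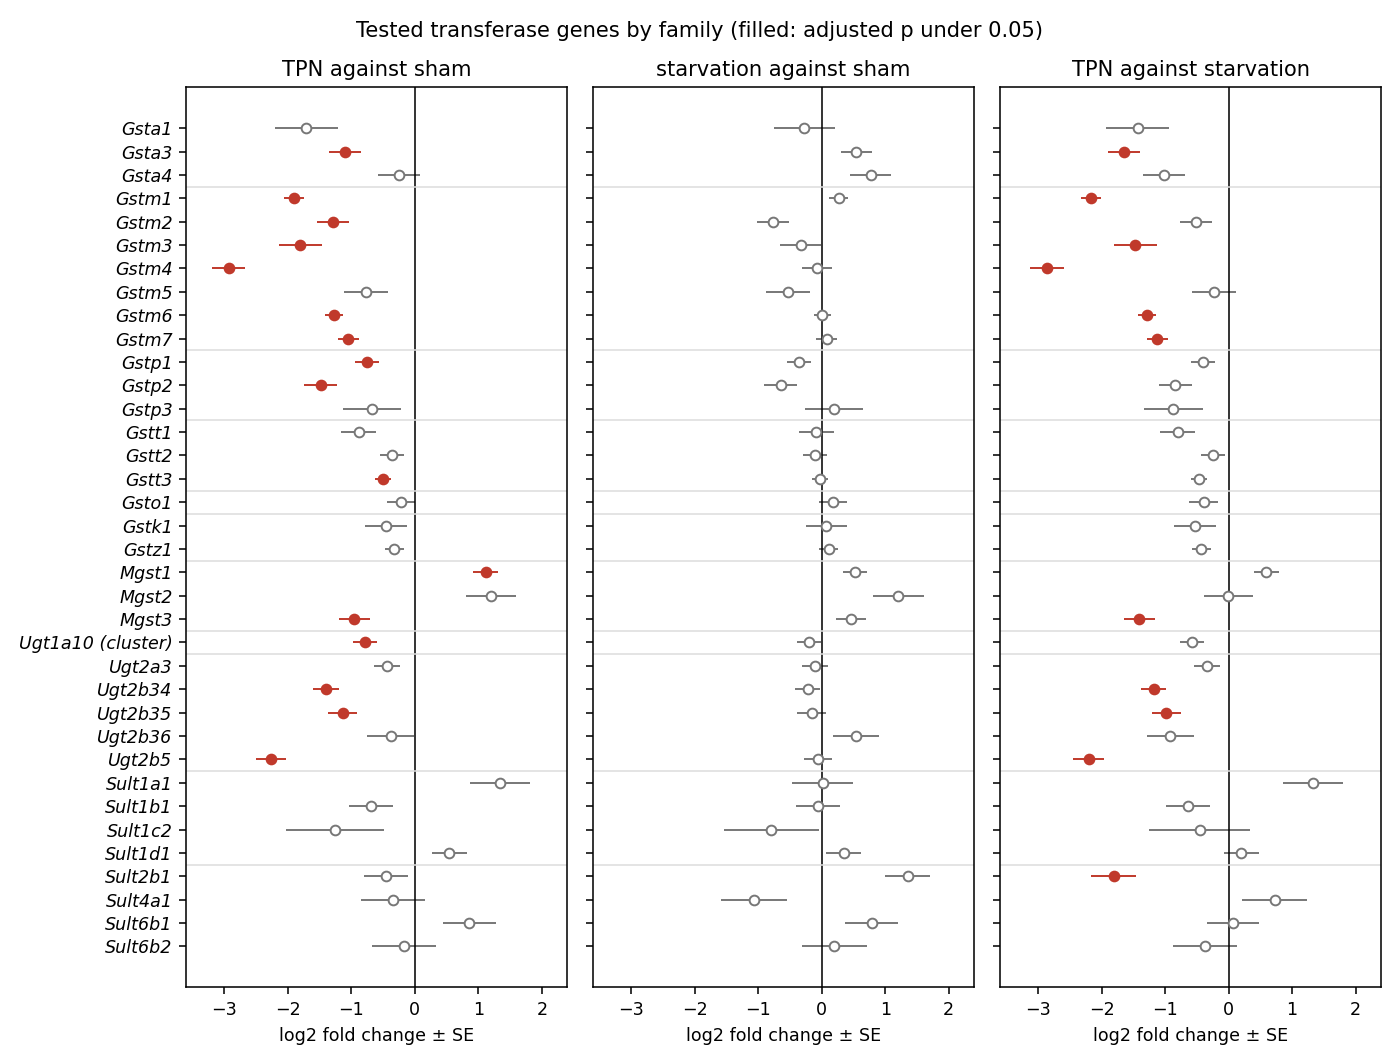
Log2 fold changes (x axis) with their standard errors for the 36 tested transferase genes, grouped by family, with the Ugt1a cluster drawn once as Ugt1a10. Filled points passed an adjusted p under 0.05. In TPN against sham 15 filled points lie left of 0 and 1 (Mgst1) lies right of it, in starvation against sham none is filled, and in TPN against starvation 11 lie left.

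The mu class (Gstm) held the largest share of lower genes. It is a cluster of cytosolic glutathione transferases on chromosome 3 (107895821 to 108044894), and 6 of its 7 genes were lower in TPN than in sham, the exception being Gstm5. Their levels added up to 549, 398 and 582 CPM in the sham libraries (replicates 1 to 3, in that order here and below), 151, 153 and 156 in TPN, and 549, 484 and 375 in starvation. The TPN libraries lay close together and below each of the other 6.

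Gstm4 (chromosome 3, 108040408 to 108044894, minus strand) was at 44.2, 28.2 and 42.4 CPM in sham, 4.53, 4.41 and 6.01 in TPN and 42.2, 26.7 and 40.2 in starvation. Sham and starvation overlapped, and TPN lay far below both. The log2 fold change was -2.93 ± 0.26 (± SE) against sham (edgeR adjusted p = 0.00066) and -2.86 ± 0.26 against starvation (edgeR adjusted p = 0.00105), a 7.64-fold and a 7.26-fold difference. Gstm1 (108012255 to 108017973, minus strand), an abundant mu-class enzyme, was at 126, 126 and 130 CPM in sham, 29.9, 33.7 and 38.2 in TPN and 166, 167 and 127 in starvation. It fell by 1.90 ± 0.16 on the log2 scale against sham (edgeR adjusted p = 0.00046) and differed by -2.17 ± 0.16 from starvation (edgeR adjusted p = 0.000717). The sham libraries lay close together, and the muscle-rich sham replicate 2 did not differ from the others for Gstm1.

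Gstm3 had the highest level per kilobase of exon in the mu class, 131 CPM per kb over the 9 libraries, against 71.1 for Gstm1. Its values were 286, 144 and 314 CPM in sham, 70.4, 70.6 and 72.6 in TPN and 264, 207 and 120 in starvation. Here sham replicate 2 and starvation replicate 3 were the low libraries of their groups, and still above every TPN library. The log2 fold change of Gstm3 was -1.80 ± 0.34 against sham (edgeR adjusted p = 0.0145) and -2.03 ± 0.12 without those libraries (edgeR adjusted p = 1.15e-05). Against starvation it was -1.47 ± 0.33 (edgeR adjusted p = 0.0351). About 28.8% of the 50-base stretches of Gstm3 transcripts, and 18.9% of those of Gstm1, occur in other genes too, so some of their reads may have been shared or dropped.

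Gstm6 and Gstm7, neighbours in the middle of the cluster, had tight groups. Gstm6 was at 37.1, 35.0 and 37.7 CPM in sham, 15.8, 15.0 and 14.5 in TPN and 32.3, 38.2 and 40.2 in starvation. TPN lay below both other groups, and the log2 fold change was -1.28 ± 0.14 against sham (edgeR adjusted p = 0.00177) and -1.29 ± 0.14 against starvation (edgeR adjusted p = 0.002). Gstm7, 1 of the genes with an antioxidant response element match, was at 23.4, 21.8 and 23.8 CPM in sham, 12.5, 10.5 and 10.3 in TPN and 21.3, 23.9 and 27.5 in starvation. Again only TPN stood apart, at -1.05 ± 0.17 against sham (edgeR adjusted p = 0.00862) and -1.12 ± 0.17 against starvation (edgeR adjusted p = 0.00867).

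Gstm2 had another pattern. Its values were 23.8, 28.1 and 25.8 CPM in sham, 10.2, 13.1 and 8.49 in TPN and 18.2, 16.9 and 10.3 in starvation. Starvation lay below sham without overlap and overlapped TPN. TPN differed from sham by -1.29 ± 0.25 (edgeR adjusted p = 0.0168), while starvation against sham gave -0.77 ± 0.25 (edgeR adjusted p = 0.113) and TPN against starvation -0.52 ± 0.25 (edgeR adjusted p = 0.254). Gstm5, mainly known from brain and testis, was at 7.75 to 14.5 CPM in sham and 5.48 to 7.42 in TPN, with -0.77 ± 0.35 (edgeR adjusted p = 0.191). Along the chromosome from Gstm5 through Gstm7, Gstm6, Gstm3, Gstm2 and Gstm1 to Gstm4, the log2 fold changes of TPN against sham were -0.77, -1.05, -1.28, -1.80, -1.29, -1.90 and -2.93. The genes at the Gstm4 end thus had the larger differences, with Gstm2 out of order, as a description of 7 neighbours.

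Leaving out any 1 of the 9 libraries kept the calls of Gstm1, Gstm4 and Gstm6 in both comparisons. Their log2 fold changes against sham then ran from -2.00 to -1.82, -3.11 to -2.82 and -1.31 to -1.25. Gstm7 was lost without TPN replicate 2 or TPN replicate 3 (highest edgeR adjusted p 0.0547 against sham and 0.0624 against starvation). Gstm2 was lost against sham without TPN replicate 1, TPN replicate 3 or sham replicate 3 (highest 0.0865, log2 fold change -1.47 to -1.15). Gstm3 was lost against sham without any 1 TPN library or sham replicate 3 (highest 0.0783, -2.08 to -1.59), and against starvation without any 1 TPN library, sham replicate 1, or starvation replicate 1 or 2 (highest 0.142, -1.67 to -1.20).

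**Figure D2:**
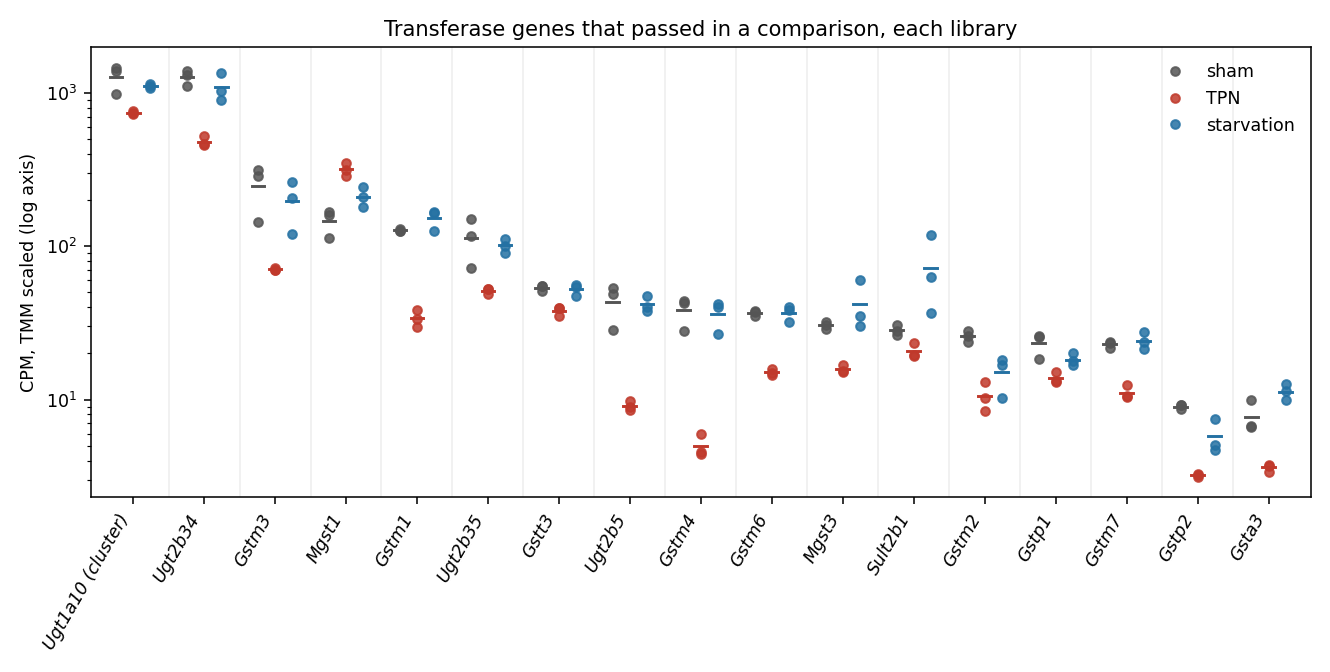
CPM in each library (log axis) of the 17 transferase genes that passed in at least 1 comparison, ordered by level in sham, with a bar at each group's mean. TPN libraries lie below all sham libraries for the 15 lower genes, above them for Mgst1 (290 to 351 against 114 to 169 CPM), and Sult2b1 spreads from 36.5 to 119 CPM in starvation.

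The alpha class (Gsta), which handles products of lipid peroxidation and other electrophiles, had 4 genes, of which 3 were tested and 1 was lower in TPN. Gsta3 (chromosome 1, 21240589 to 21265661, plus strand) was at 6.67, 9.92 and 6.66 CPM in sham, 3.38, 3.69 and 3.76 in TPN and 12.6, 11.3 and 9.95 in starvation. The 3 groups did not overlap, with starvation highest. TPN differed by -1.10 ± 0.25 from sham (edgeR adjusted p = 0.0308) and by -1.64 ± 0.25 from starvation (edgeR adjusted p = 0.00906). Starvation against sham gave 0.54 ± 0.24 (edgeR adjusted p = 0.214). The difference from sham passed in 2 of 9 fits with 1 library left out, those without starvation replicate 1 or 3 (range -1.19 to -0.89, highest edgeR adjusted p 0.131). Against starvation it passed in 6 of 9, lost without any 1 TPN library (highest 0.0599).

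Gsta1 (chromosome 9, 78230656 to 78242684, plus strand) had wider groups, at 35.5, 9.18 and 26.2 CPM in sham, 9.72, 6.68 and 5.29 in TPN and 29.8, 16.5 and 12.3 in starvation. Sham replicate 2 fell inside the TPN range, and the difference of TPN from sham did not pass (-1.71 ± 0.50, edgeR adjusted p = 0.0656). Without sham replicate 2 and starvation replicate 3 it was -2.05 ± 0.29 (edgeR adjusted p = 0.00111). Most of Gsta1's sequence (90.5% of 50-base stretches) recurs elsewhere, chiefly in Gm3776, so its level is uncertain. Gsta4, an enzyme for hydroxyalkenals, was at 12.8, 5.76 and 10.1 CPM in sham, 10.1, 5.96 and 8.01 in TPN and 19.5, 12.4 and 16.9 in starvation. TPN and sham overlapped (-0.24 ± 0.33, edgeR adjusted p = 0.671), and TPN lay below starvation at -1.01 ± 0.33 (edgeR adjusted p = 0.108). Gsta2 had 17 reads, all of them in the starvation libraries.

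In the pi class (Gstp), 2 of 3 genes were lower in TPN. Gstp1 (chromosome 19, 4035407 to 4037985, minus strand), a cytosolic transferase made in many epithelia, was at 26.0, 18.4 and 25.6 CPM in sham, 13.2, 15.1 and 13.1 in TPN and 16.8, 20.1 and 17.8 in starvation. TPN differed from sham by -0.76 ± 0.19 (edgeR adjusted p = 0.0394). Its copy Gstp2 was at 9.23, 8.64 and 9.16 CPM in sham, 3.13, 3.22 and 3.28 in TPN and 4.71, 5.07 and 7.52 in starvation, and the 3 groups did not overlap. The Gstp2 difference of TPN from sham was -1.49 ± 0.26 (edgeR adjusted p = 0.0118), and that of starvation from sham was -0.65 ± 0.26 (edgeR adjusted p = 0.169). Both copies share sequence with each other (33.7% of 50-base stretches of Gstp1 and 54.3% of Gstp2), so reads may have moved between them. Gstp3, at 5.66 to 6.87 CPM in sham, 3.58 to 4.40 in TPN and 2.31 to 10.3 in starvation, did not pass (-0.68 ± 0.46, edgeR adjusted p = 0.378). Leaving out a library ended the call of Gstp1 without any 1 TPN library, sham replicate 1 or 3, or starvation replicate 2 (range -0.91 to -0.67, highest edgeR adjusted p 0.156), and that of Gstp2 without any 1 TPN library or sham replicate 3 (range -1.52 to -1.46, highest 0.0698).

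Among theta-class genes (Gstt), 4 listed and 3 tested, 1 was lower. Gstt3 (chromosome 10, 75774115 to 75781414, minus strand) was at 54.9, 50.9 and 55.2 CPM in sham, 39.7, 39.5 and 35.1 in TPN and 54.2, 47.1 and 56.4 in starvation. The difference from sham was small and tight, -0.50 ± 0.13 (edgeR adjusted p = 0.0428). That call was lost without any 1 TPN library, sham replicate 1 or 3, or starvation replicate 2 (range -0.53 to -0.44, highest edgeR adjusted p 0.164). Gm20441, a gene model on the same strand, overlaps Gstt3 over 6840 bases, so reads there were counted for both. Gstt1 was at 38.9, 58.4 and 43.6 CPM in sham, 28.9, 23.2 and 23.9 in TPN and 32.1, 36.2 and 64.8 in starvation, with its highest sham and starvation values in the libraries that stood apart. It did not pass against sham (-0.89 ± 0.27, edgeR adjusted p = 0.0731), and without those libraries it was -0.66 ± 0.12 (edgeR adjusted p = 0.00383). Gstt2, at 17.1 to 21.9 CPM in sham and 14.3 to 15.5 in TPN, did not pass (-0.36 ± 0.19, edgeR adjusted p = 0.254).

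The omega, kappa and zeta classes held no call in any comparison. Gsto1, an omega-class enzyme that reduces mixed disulfides and dehydroascorbate, was at 374, 291 and 298 CPM in sham, 295, 243 and 287 in TPN and 274, 335 and 477 in starvation. Groups overlapped, and TPN against sham gave -0.22 ± 0.22 (edgeR adjusted p = 0.56). Gsto1 lies inside Cfap43 on the other strand, and Gsto1's reads make up 96.6% of those counted for Cfap43. Gsto2 had 21 reads in all. Gstk1, the kappa-class enzyme of mitochondria and peroxisomes, was at 15.8, 16.1 and 17.1 CPM in sham, 13.5, 10.01 and 12.2 in TPN and 9.10, 17.1 and 25.6 in starvation (TPN against sham -0.45 ± 0.32, edgeR adjusted p = 0.399). Gstz1, which also serves as maleylacetoacetate isomerase in tyrosine breakdown, was at 44.2, 38.6 and 51.5 CPM in sham, 34.5, 36.8 and 36.0 in TPN and 52.1, 50.5 and 42.4 in starvation (TPN against sham -0.32 ± 0.15, edgeR adjusted p = 0.195).

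Of the 3 membrane-bound transferases (Mgst), 1 was higher in TPN than in sham, 1 was lower and 1 did not pass. Mgst1 (chromosome 6, 138140316 to 138156755, plus strand), which sits in the endoplasmic reticulum and outer mitochondrial membrane and reduces lipid peroxides, was the 1 transferase gene that passed as higher in TPN than in sham. Its values were 169, 114 and 159 CPM in sham, 351, 316 and 290 in TPN and 210, 243 and 181 in starvation, and the 3 groups did not overlap. The log2 fold change of TPN against sham was 1.11 ± 0.20 (edgeR adjusted p = 0.0117), a 2.17-fold difference. Starvation lay between, at 0.52 ± 0.19 against sham (edgeR adjusted p = 0.152), and TPN exceeded starvation by 0.59 ± 0.19 (edgeR adjusted p = 0.11). The call was lost without TPN replicate 1 or TPN replicate 2 (highest edgeR adjusted p 0.0666, range 0.96 to 1.22).

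Mgst2, which can join glutathione to a leukotriene precursor, was at 65.2, 20.5 and 74.6 CPM in sham, 136, 126 and 107 in TPN and 126, 150 and 94.6 in starvation. All TPN and starvation libraries lay above all sham libraries, with sham replicate 2 far below the rest. Neither difference passed, at 1.20 ± 0.39 in TPN (edgeR adjusted p = 0.0882) and 1.21 ± 0.39 in starvation (edgeR adjusted p = 0.116). Without sham replicate 2 and starvation replicate 3 they were 0.86 ± 0.13 (edgeR adjusted p = 0.00155) and 0.98 ± 0.14 (edgeR adjusted p = 0.00272). Mgst3 (chromosome 1, 167371966 to 167393841, minus strand), a relative with peroxidase activity, was at 32.0, 30.5 and 28.9 CPM in sham, 16.7, 15.1 and 15.4 in TPN and 29.999, 35.3 and 60.3 in starvation. It was lower in TPN than in sham (-0.95 ± 0.24, edgeR adjusted p = 0.0421) and than in starvation (-1.41 ± 0.24, edgeR adjusted p = 0.0133). The Mgst3 call against sham was kept without starvation replicate 1 or starvation replicate 3 and lost in the other 7 fits (highest edgeR adjusted p 0.149, range -0.999 to -0.915). Against starvation the Mgst3 call was lost without any 1 TPN library (highest 0.0779, range -1.60 to -0.995), and without sham replicate 2 and starvation replicate 3 it was -1.01 ± 0.12 (edgeR adjusted p = 0.000708).

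**Figure D3:**
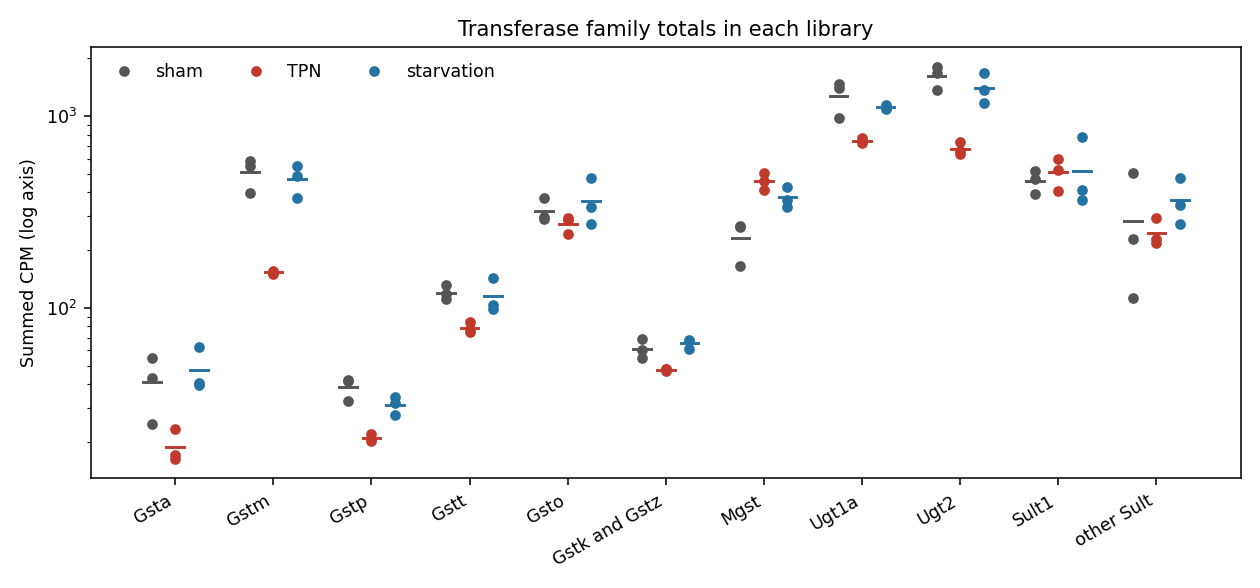
Summed CPM of each transferase family (log axis) in each library, with a bar at each group's mean and the Ugt1a cluster counted once. Sums compare libraries within a family and not families with each other, since genes differ in length; the Gstm sums are 151 to 156 CPM in TPN against 398 to 582 in sham, and the Mgst sums are 412 to 503 in TPN against 165 to 266 in sham.

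The Ugt1a cluster on chromosome 1 (88055388 to 88220002, plus strand) makes a set of glucuronosyltransferases from alternative first exons joined to common later exons. Ugt1a1 is the enzyme for bilirubin, and the others act on phenols and other small molecules. The 9 deposited counts shared most of their reads: Ugt1a10 and Ugt1a9 had identical counts (99669 over the 9 libraries), Ugt1a8 and Ugt1a7c had 98965 and 98992, and the count dropped to 73714 at Ugt1a6b and ended at 71057 for Ugt1a1, the innermost gene. The cluster was therefore counted once, with the step at Ugt1a6b described separately. No read was counted for Ugt1a10 outside Ugt1a9, so the Ugt1a10 values below stand for the cluster and not for the Ugt1a10 first exon.

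Ugt1a10, the outermost gene, was at 1398, 979 and 1462 CPM in sham, 766, 739 and 726 in TPN and 1142, 1084 and 1107 in starvation. TPN lay below all other libraries, and starvation lay inside the sham range. TPN differed from sham by -0.78 ± 0.19 (edgeR adjusted p = 0.0379), with Ugt1a9, Ugt1a8 and Ugt1a7c called at -0.78 as well (edgeR adjusted p = 0.0379, 0.0382 and 0.0382). The 5 inner genes, Ugt1a6b, Ugt1a6a, Ugt1a5, Ugt1a2 and Ugt1a1, missed the threshold at -0.64 to -0.63 (for Ugt1a1 -0.64 ± 0.18, edgeR adjusted p = 0.058). Without sham replicate 2 and starvation replicate 3, Ugt1a10 was at -0.90 ± 0.08 (edgeR adjusted p = 1e-04), and Ugt1a1 at -0.74 ± 0.09 (edgeR adjusted p = 0.000456). The Ugt1a10 call was lost without any 1 TPN library, sham replicate 1 or 3, or starvation replicate 2 (range -0.945 to -0.675, highest edgeR adjusted p 0.145).

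Each count was then subtracted from that of the next gene outward, a step added after the nesting was seen. No difference was formed between Ugt1a10 and Ugt1a9, which were identical, or between Ugt1a8 and Ugt1a7c, where the inner gene had more reads. Ugt1a7c minus Ugt1a6b, which holds the reads between their starts with the first exon of Ugt1a7c and any reads past the end of Ugt1a6b (88219003, against 88220002 for Ugt1a7c), gave 406, 262 and 439 CPM in sham, 161, 148 and 163 in TPN and 273, 263 and 263 in starvation. TPN lay lowest, and the sham minimum was sham replicate 2. The difference of TPN from sham was -1.23 ± 0.20 (edgeR adjusted p = 0.00889), that of starvation from sham -0.47 ± 0.20 (edgeR adjusted p = 0.194), and that of TPN from starvation -0.76 ± 0.20 (edgeR adjusted p = 0.0572). In the same fit the Ugt1a1 count, which holds the common exons and so sums over all the isoforms, gave -0.64 ± 0.18 for TPN against sham (edgeR adjusted p = 0.0592). Ugt1a9 minus Ugt1a8, with 704 reads, was at -1.39 ± 0.36 (edgeR adjusted p = 0.0447). The other 4 differences formed held 344 to 928 reads each and did not pass in any comparison.

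**Figure D4:**
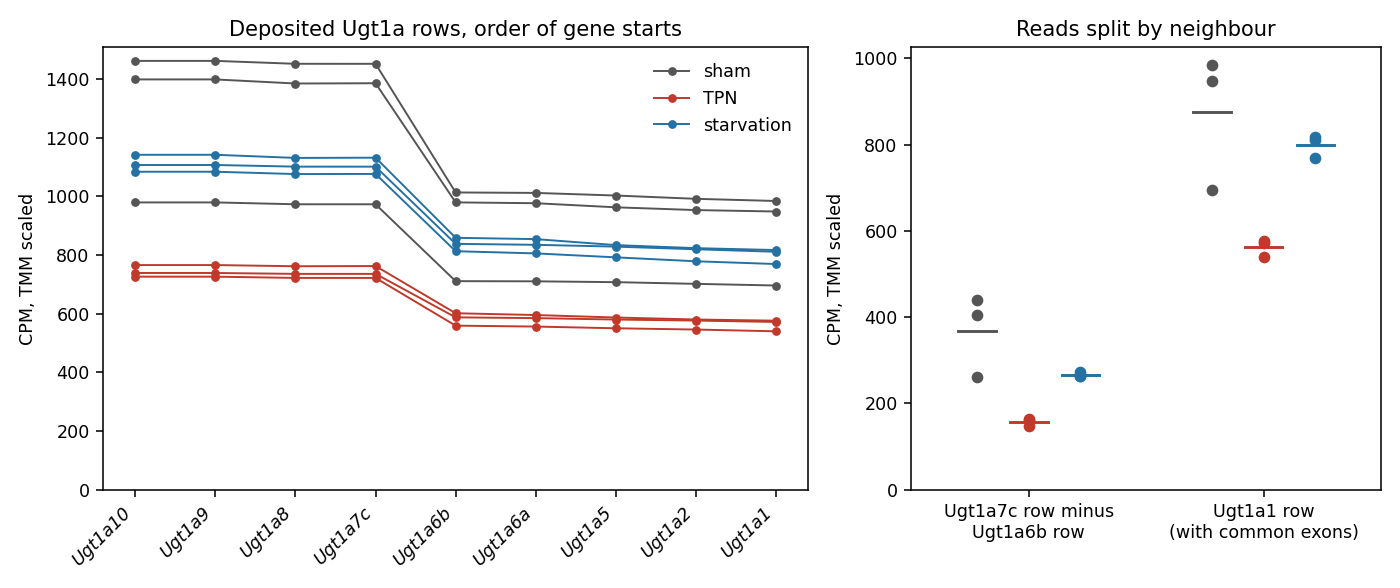
CPM of the 9 Ugt1a genes as deposited, ordered by start, 1 line per library (left), and CPM after subtraction of the next inner gene for Ugt1a7c and for the Ugt1a1 count with the common exons (right), with bars at group means. The left lines step down most between Ugt1a7c and Ugt1a6b, and on the right the TPN points lie at 148 to 163 CPM for Ugt1a7c minus Ugt1a6b against 262 to 439 in sham.

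The Ugt2 genes, which glucuronidate steroids, bile acids and drugs, form a cluster on chromosome 5. There were 10 of them, 5 tested, and 3 lower in TPN than both in sham and in starvation. Ugt2b34 (86889767 to 86906937, minus strand) had the highest level per kilobase of exon outside the Ugt1a cluster, 220 CPM per kb over the 9 libraries. In the TPN libraries alone its mean of 112 CPM per kb was below those of Mgst1 (158), Sult1d1 (149) and Gsto1 (136). Ugt2b34 was at 1401, 1105 and 1318 CPM in sham, 521, 458 and 466 in TPN and 904, 1030 and 1345 in starvation. All TPN libraries lay below all others, and starvation overlapped sham. TPN differed by -1.40 ± 0.20 from sham (edgeR adjusted p = 0.00536) and by -1.18 ± 0.20 from starvation (edgeR adjusted p = 0.0129).

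Ugt2b5 (87124960 to 87140318, minus strand) was at 53.5, 28.3 and 48.9 CPM in sham, 8.90, 9.77 and 8.57 in TPN and 40.1, 47.4 and 38.1 in starvation. The TPN libraries lay close together, far below the others. The difference was -2.26 ± 0.24 from sham (edgeR adjusted p = 0.00165) and -2.21 ± 0.24 from starvation (edgeR adjusted p = 0.002), or 4.802-fold and 4.612-fold. Ugt2b5 shares 41.7% of its 50-base stretches with other genes, chiefly Ugt2b38, which had 60 reads in all. Ugt2b35 (87000860 to 87013275, plus strand) was at 150, 72.0 and 117 CPM in sham, 52.7, 49.2 and 52.3 in TPN and 101, 112 and 90.9 in starvation, with sham replicate 2 lowest of its group. It differed by -1.14 ± 0.23 from sham (edgeR adjusted p = 0.0202) and by -0.98 ± 0.23 from starvation (edgeR adjusted p = 0.0409).

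Ugt2a3, expressed in intestine and known for bile acid conjugation, was at 186, 149 and 180 CPM in sham, 143, 113 and 122 in TPN and 120, 157 and 201 in starvation, and did not pass (TPN against sham -0.44 ± 0.20, edgeR adjusted p = 0.196). Ugt2b36, at 4.27 to 9.52 CPM in sham, 4.97 to 6.32 in TPN and 7.29 to 15.4 in starvation, did not pass either (-0.38 ± 0.37, edgeR adjusted p = 0.539). The Ugt2b5 and Ugt2b34 calls against sham were kept with any 1 library left out (ranges -2.50 to -2.09 and -1.50 to -1.33). Ugt2b34 against starvation was lost without any 1 TPN library (highest edgeR adjusted p 0.0874, range -1.30 to -0.95). Ugt2b35 was lost against sham without any 1 TPN library or sham replicate 1 or 3 (highest 0.1, range -1.38 to -0.88). Against starvation Ugt2b35 was kept only without sham replicate 1 or 2 (highest 0.167, range -0.996 to -0.902).

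The sulfotransferases held no call against sham. Of 6 Sult1 genes 4 were tested, and of 15 others 4. Sult1d1, which sulfates catecholamines and other phenols, was at 274, 266 and 215 CPM in sham, 438, 284 and 380 in TPN and 247, 248 and 464 in starvation. TPN lay above sham without overlap, at 0.54 ± 0.28 (edgeR adjusted p = 0.242), and without sham replicate 2 and starvation replicate 3 at 0.63 ± 0.18 (edgeR adjusted p = 0.0278). Sult1b1, an enzyme for thyroid hormones and phenols, was at 189, 237 and 169 CPM in sham, 140, 101 and 126 in TPN and 105, 156 and 310 in starvation. The lower level in TPN did not pass (-0.69 ± 0.35, edgeR adjusted p = 0.233), and the highest value was that of starvation replicate 3, rich in villus tip markers.

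Sult1a1, the main phenol sulfotransferase, is named after its values were seen. It was at 4.22, 15.3 and 5.25 CPM in sham, 20.8, 22.1 and 19.5 in TPN and 9.97, 10.2 and 4.51 in starvation. TPN lay above all other libraries, and the muscle-rich sham replicate 2 was nearest to it. With all libraries the difference from sham was 1.34 ± 0.48 (edgeR adjusted p = 0.109), and without sham replicate 2 and starvation replicate 3 it was 2.16 ± 0.17 (edgeR adjusted p = 4.57e-05). Sult6b2 was at 473, 80.3 and 194 CPM in sham, 263, 195 and 204 in TPN and 304, 206 and 348 in starvation, so that sham alone spanned the other groups (-0.17 ± 0.51, edgeR adjusted p = 0.857). Sult1c2, Sult4a1 and Sult6b1 stayed at or below 4.16 CPM in every library and did not pass in any comparison.

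Sult2b1 (chromosome 7, 45729983 to 45784669, minus strand), which sulfates cholesterol and other hydroxysteroids, was the 1 gene called against starvation alone. It was at 28.2, 26.2 and 30.8 CPM in sham, 23.4, 19.4 and 19.4 in TPN and 36.5, 62.9 and 119 in starvation. Starvation lay above both other groups and spread widely, with starvation replicate 3 highest. TPN differed from starvation by -1.81 ± 0.36 (edgeR adjusted p = 0.0203), lost without any 1 TPN library (highest edgeR adjusted p 0.105, range -2.13 to -1.20). Starvation against sham gave 1.35 ± 0.35, the smallest adjusted p of the transferase genes in that comparison (edgeR adjusted p = 0.0655). Without sham replicate 2 and starvation replicate 3, Sult2b1 was 0.75 ± 0.22 higher in starvation than in sham (edgeR adjusted p = 0.0428) and -1.21 ± 0.20 in TPN against starvation (edgeR adjusted p = 0.00343).

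The comparison of starvation with sham asks what 24 h without food does. By the edgeR quasi-likelihood test 0 of the 44 transferase genes passed, against 3.69% of all genes (2.55% higher and 1.14% lower). At an unadjusted p under 0.05 there were 6, DESeq2 called 3 (2 higher, 1 lower) and limma voom 0, where over all genes edgeR called 541, DESeq2 1525 and limma voom 444. The median log2 fold change was -0.08, against -0.01 for all genes, and 8 of 44 genes did not overlap between the groups (18.2%, against 25.1% of all genes). With the Ugt1a cluster counted once, the median of the 36 genes was -0.01. The 8 include no Ugt1a gene, while the 44 count the cluster's shared reads more than once. Without starvation replicate 1 the count was 1, and likewise without starvation replicate 3, beside 370 and 1739 calls over all genes. With other single libraries left out it stayed 0, beside 32 (without sham replicate 3) to 263 calls over all genes, and a fit of the sham and starvation libraries alone called 2 of all genes and 0 transferases. Dropping both sham replicate 2 and starvation replicate 3 brought it to 12 of 44, while the share of all genes called rose to 19.9%. These 12 count the shared reads of the Ugt1a cluster more than once. In that fit Gsta3, Mgst1, Mgst2, Sult1a1 and Sult2b1 were higher in starvation, and Gstp1, Gstp2, Ugt2b34, Ugt1a10, Ugt1a9, Ugt1a8 and Ugt1a7c lower. Among these, Gsta3 was at 0.84 ± 0.21 (edgeR adjusted p = 0.0222), Gstp2 at -0.91 ± 0.23 (edgeR adjusted p = 0.0261), Ugt2b34 at -0.49 ± 0.11 (edgeR adjusted p = 0.0163) and Ugt1a10 at -0.36 ± 0.09 (edgeR adjusted p = 0.0244). Paneth cell markers, 6 genes, were lower in starvation than in sham for 3, summing to 509 to 1883 CPM against 3097 to 3452. So were 2 of 7 fibroblast markers (153 to 283 against 395 to 1208 CPM) and 1 of 7 enteroendocrine markers, and the part of these cells in the values was not tested.

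TPN and starvation both keep food from the gut, and TPN was set against starvation directly. Lower in TPN were 11 of the 44 transferase genes and higher 0, that is 25.0%, against 5.84% of all genes, of which 1.94% were higher and 3.9% lower. The median log2 fold change was -0.55, against -0.03 for all genes, and 30 of 44 did not overlap (68.2%, against 33.6%). The 30 include every Ugt1a gene, so the cluster's shared reads enter that share more than once. With the Ugt1a cluster counted once, 11 of 36 genes were lower (30.6%), with a median of -0.61. Beside Sult2b1, the 10 genes were Gsta3, Gstm1, Gstm3, Gstm4, Gstm6, Gstm7, Mgst3, Ugt2b34, Ugt2b35 and Ugt2b5, each lower in TPN than in sham as well. Both comparisons use the same 3 TPN libraries. All 11 remained called without sham replicate 2 and starvation replicate 3, where 27 were lower and 3 higher (Mgst1, Sult1a1 and Sult1d1) and 21.6% of all genes were called. Leaving out 1 library gave 5 without TPN replicate 1, 4 without TPN replicate 2, 4 without TPN replicate 3 and 19 without sham replicate 2, beside 159, 137, 124 and 1248 calls over all genes in place of 857. Villus enterocyte markers were lower in TPN than in starvation for 4 of 12 genes and lower than in sham for 3 of 12, and 3 of 7 fibroblast markers were lower than in sham (200 to 290 CPM summed, against 395 to 1208). Paneth markers were higher in TPN than in starvation for 4 of 6 genes and enteroendocrine markers for 1 of 7. Their part was not tested.

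The enzymes that supply, flank and follow the transferases were read from 8 lists with 109 genes, of which 99 were tested. The lists were chosen with earlier results of these data known. In TPN against sham 4 were higher and 20 lower (24.2%, against 8.6% of all genes tested). In starvation against sham it was 4 and 3 (7.07%, against 3.69%), and in TPN against starvation 5 and 23 (28.3%, against 5.84%). Over all genes the shares higher and lower were 3.48% and 5.12% in TPN against sham. They were 2.55% and 1.14% in starvation against sham, and 1.94% and 3.9% in TPN against starvation. The median log2 fold changes were -0.40, -0.04 and -0.32, against -0.02, -0.01 and -0.03 for all genes. Of the suppliers of the cosubstrates, Ugdh, which makes UDP-glucuronic acid, was at 433, 397 and 407 CPM in sham, 189, 145 and 154 in TPN and 288, 328 and 518 in starvation. Only TPN stood apart from the other groups for Ugdh (-1.34 ± 0.23 against sham, edgeR adjusted p = 0.0112). In TPN 2 of 12 glutathione genes were lower than in sham, Ggt1, which splits glutathione outside the cell (-1.47 ± 0.32, edgeR adjusted p = 0.0254), and Gss, glutathione synthetase (-0.92 ± 0.22, edgeR adjusted p = 0.037). Papss1, which makes the sulfate donor, was the 1 of 12 sulfate genes that was lower (-0.80 ± 0.20, edgeR adjusted p = 0.0416).

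Of 10 export genes, 1 was higher in TPN than in sham (Abcc6), 2 were lower (Abcc3 and Abcb1a) and 7 did not pass. Over all genes, 3.48% were higher and 5.12% lower in TPN than in sham. Abcc3, a pump of the basal side for glucuronides, was at 57.3, 37.5 and 64.1 CPM in sham and 17.8, 19.3 and 15.3 in TPN. It was lower in TPN than in sham (-1.60 ± 0.21, edgeR adjusted p = 0.00364). Abcc6 was at 13.4, 8.96 and 14.5 CPM in sham, 44.3, 37.9 and 34.5 in TPN and 31.0, 34.2 and 42.0 in starvation. It was higher than in sham in TPN (1.66 ± 0.21, edgeR adjusted p = 0.00347) and in starvation (1.54 ± 0.21, edgeR adjusted p = 0.0105). Both differences of Abcc6 rest on the same sham libraries. Of 15 oxidising and reducing enzymes known as readouts of the sensors, 8 were lower in TPN than in sham and 0 higher (53.3%, against 8.6% of all genes). Among them Nqo1, a quinone reductase, was at 56.4, 39.0 and 49.1 CPM in sham, 7.99, 6.91 and 8.33 in TPN and 33.7, 34.5 and 34.1 in starvation, and Cyp1a1, a target of the aryl hydrocarbon receptor, was at 281 to 331 CPM in sham, 0.0801 to 0.33 in TPN and 10.7 to 33.9 in starvation. Of 12 sensors, Ppara (1.87 ± 0.29, edgeR adjusted p = 0.00773) and Nr1i2 were higher in TPN and Keap1, the repressor of NRF2, was lower (-0.67 ± 0.14, edgeR adjusted p = 0.0232). Of 13 related transferases and peroxidases outside the symbol rule, 1 was higher and 2 were lower, among them Gpx2, lower (-2.12 ± 0.25, edgeR adjusted p = 0.00238) and Prdx6 higher (0.99 ± 0.20, edgeR adjusted p = 0.0191). In TPN against starvation the same lists gave, among others, Gclc, which starts glutathione synthesis, at -1.11 ± 0.17 (edgeR adjusted p = 0.00867).

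**Figure D5:**
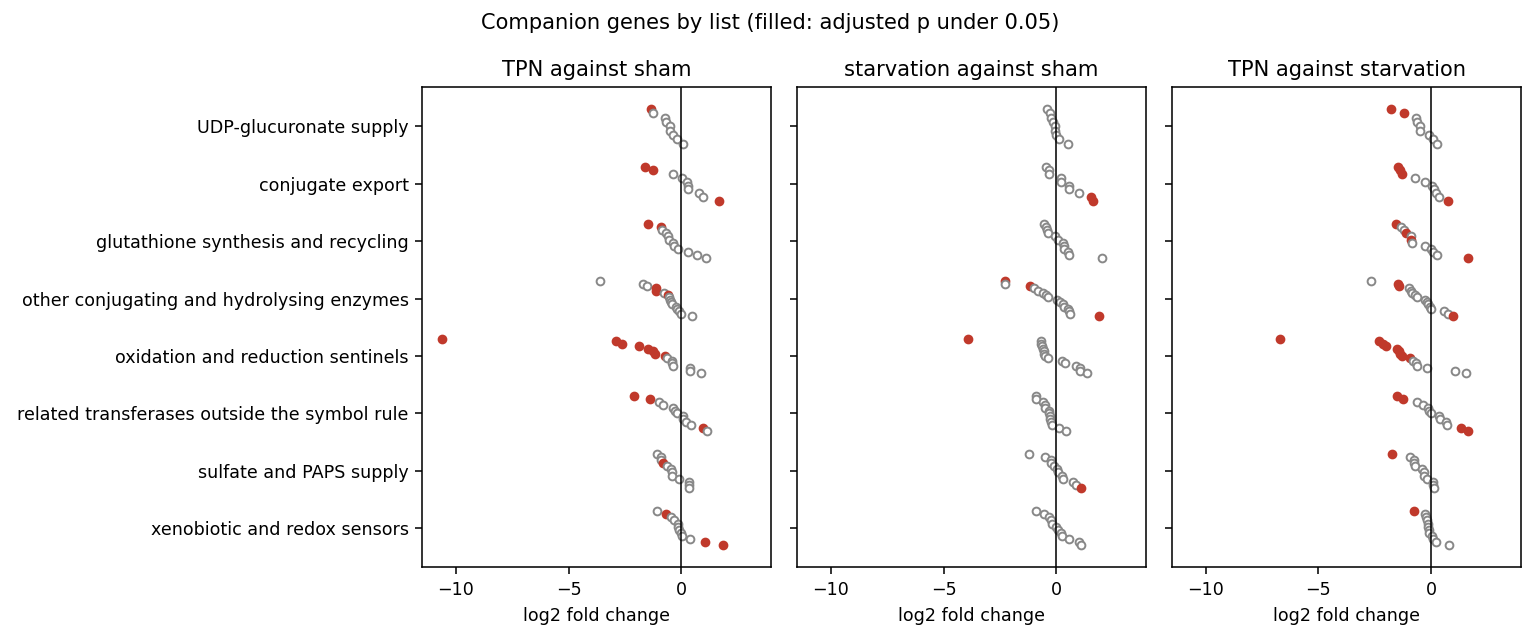
Log2 fold changes (x axis) of the 99 tested companion genes in 8 lists (y axis), 1 point per gene, filled where the adjusted p was under 0.05. In TPN against sham 20 filled points lie left of 0 and 4 right of it; the point farthest left is Cyp1a1, whose value rests on few TPN reads.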

How the data were processed

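The authors deposited raw counts per gene symbol, whole numbers that differ in total between libraries, 3 libraries per group by the labels. Per the submitters' processing notes, the build was GRCm38 (mm10) and the tools included STAR 2.7.2e, featureCounts 2.0.0, cutadapt 2.9, DESeq2 1.32.0 and FastQC 0.11.8; the sources used here do not give the counting settings. The table holds 9 more count columns that fit no label, which were left out. Positions came from GENCODE M21, sequences from RefSeq (GRCm38.p6). Counts were tested with edgeR 4.0.16 in R 4.3.3 (filterByExpr, 14668 genes kept; TMM; a quasi-likelihood fit of all 9 libraries with 6 residual degrees of freedom; Benjamini-Hochberg adjustment over all genes tested, threshold 0.05), after the code was tested on simulated data. The standard error is the log2 fold change over the square root of F. Alternatives were DESeq2 1.42.0, limma 3.58.1 voom, other scalings, filters and thresholds, the replicate number as a block, 2-group fits and libraries left out. Members of the gene set and all lists were chosen with earlier results of these data known. The rule was to name all called genes, the 2 highest per kilobase in each family, and the 2 smallest adjusted p in each companion list. Cyp1a1 and Nqo1 were fixed choices beside these. Not every companion gene under the rule is printed. Other tested transferase genes, such as Gstm5, Gstt2 and Ugt2b36, are given beside the named ones, and Sult1a1 was named after its values were seen.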

Additional observations from a re-analysis of the deposited data

How the results depend on the processing

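Direction held in every alternative: no transferase log2 fold change called with all libraries changed sign under the up to 22 alternatives run for it, and 9 of the 30 calls over the 3 comparisons passed in all of them, while 21 were lost in at least 1. The count of called transferase genes in TPN against sham (19 of 44) was 29 with DESeq2 (3 higher, 26 lower), 11 by library totals alone (2 and 9), 6 at an adjusted p under 0.01, 12 with at least a 2-fold change, 32 without sham replicate 2 and starvation replicate 3, and 6 to 29 with 1 library left out. Over all genes the same fits called 2274, 1224 (651 higher, 573 lower), 258, 662, 4425 and 216 to 3182, against 1261. In starvation against sham (0) it was 3 with DESeq2, 1 by library totals, 12 without those libraries, and 0 to 1 with 1 left out, beside 1525, 353, 2949 and 32 to 1739 over all genes, against 541. In TPN against starvation (11) it was 25 with DESeq2 (2 and 23), 6 at an adjusted p under 0.01, 30 without those libraries, and 4 to 19 with 1 left out, beside 1690, 144, 3205 and 124 to 1248 over all genes, against 857. Scaling by library totals shifted the median log2 fold change of all genes by 0.19 in TPN against sham and 0.14 in TPN against starvation. With the replicate number as a block, the counts were 10 in TPN against sham, 0 in starvation against sham and 8 in TPN against starvation. Over all genes these fits called 556, 71 and 386. The counts of transferase genes here hold each Ugt1a gene singly, though these genes share most of their reads. In their deviations from the group means, same-numbered libraries correlated at -0.3 to 0.378 over 9 pairs, with 2 over 0.1. Differently numbered libraries correlated at -0.58 to 0.481. With 3 libraries per group, these values cannot decide whether the numbers mark pairs. The cause of these differences in the counts was not tested. Fits with libraries left out also hold fewer samples, and the part of that was not tested either. At 7779877 to 12084278 reads per library, the 21 transferase genes with at most 60 reads in all were not tested with the filter on low counts.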
